A study of Mus musculus with 17 samples.

Results

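The cells that received a 3-microRNA vector were set directly against the cells that received 1 of its members, miR-125a, alone. The comparison rests on 6 of the 17 arrays of the series: the 3 cluster arrays of the experiment called dataset B (replicates 4 to 6) and its 3 miR-125a arrays (replicates 1 to 3). The 3 empty-vector arrays of the same dataset (replicates 4 to 6) were normalised with them and gave the level without a vector microRNA. No measured value was used to choose the arrays. A gene was tested if its brightest probe had a detection p under 0.05 on 3 or more arrays of dataset B. That held for 9430 of the 19057 named genes on the array.

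The cells on all 9 arrays came from bone marrow of C57Bl/6 mice that had received 150 mg/kg of 5-fluorouracil, a drug that kills dividing cells, 4 days before collection. The marrow was cultured for 7 days with stem cell factor, interleukin 11 and Flt3 ligand, and was transduced with an MXW retrovirus that also encodes the green fluorescent protein EGFP. The empty-vector cells carried the virus without a microRNA, the cluster cells carried miR-99b, let-7e and miR-125a, and the miR-125a cells carried miR-125a alone. Living EGFP-positive cells were sorted 5 days after the first transduction, and the design text calls the 3 samples of each group independent biological replicates. Each sample is a mixed, bulk population, so fewer cells of a type and less RNA per cell cannot be told apart. Both vectors carry miR-125a, so what separates the 2 groups by design is miR-99b and let-7e. None of the 45281 probes is named for a vector microRNA, so the amount of each microRNA that the cells made was not measured here.

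MicroRNAs are short RNAs that guide an Argonaute protein to messenger RNAs, chiefly by pairing of the seed near their 5′ end with sites in the 3′ untranslated region. The bound messenger is then translated less and often degraded, so that its level is lower where the microRNA is higher. The let-7 family is widely expressed in differentiated cells and restrains growth and RNA-binding genes, the miR-99 family is known to act on mTOR and insulin-like growth factor signalling, and miR-125a acts in blood stem cells, where excess of it expands the stem cell pool.

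The 3 mature microRNAs are shown because the comparison turns on their seeds, bases 2 to 8, which are in capitals. The sequences are those of RefSeq on mouse build GRCm38.p6, where the 3 lie within 647 bases on the plus strand of chromosome 17.
mmu-miR-99b-5p: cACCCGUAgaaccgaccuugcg
mmu-let-7e-5p: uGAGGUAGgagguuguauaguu
mmu-miR-125a-5p: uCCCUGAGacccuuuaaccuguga
The 3 seeds differ from each other. The mature miR-99b lies at chr17:17830194-17830215, let-7e at chr17:17830366-17830387 and miR-125a at chr17:17830817-17830840. The seed of miR-99b is shared with miR-99a and miR-100, and that of let-7e with 10 other mature microRNAs of the table, among them the remaining let-7 members and miR-98. The miR-125a seed is shared with 4 others, among them miR-125b and miR-351. The vector that carries miR-125a alone lacks the first and second seed but not the third.

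No gene passed the test between the cluster and miR-125a arrays. All 9430 genes had an adjusted p of 0.758 or above (limma, Benjamini-Hochberg adjustment), so that 0% were called. At an unadjusted p under 0.05 there were 426 genes, 4.52% of those tested, of which 203 (2.15%) were higher with the cluster and 223 (2.36%) lower. The share of genes with a higher mean on the cluster arrays was 49.1%. For 877 genes (9.3%) the 3 cluster values and the 3 miR-125a values did not overlap, and 404 of these (4.28%) were higher with the cluster and 473 (5.02%) lower. All values are on a log2 scale, on which a difference of 1 is a 2-fold difference.

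The measured differences were small and the intervals around them of moderate width. The median size of a difference was 0.11 and its 95th percentile 0.37, and 6 genes had means more than 2-fold apart, 2 higher and 4 lower with the cluster. The 95% interval of the difference lay wholly within 2-fold for 9217 genes (97.7%) and wholly within 1.5-fold for 7131 genes (75.6%). The median standard error was 0.15 and the median half-width of the interval 0.33. A gene with that precision could therefore differ by that half-width either way without reaching an unadjusted p of 0.05, and a missed threshold does not show that the 2 vectors act alike.

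Arrays of the 2 vectors were about as far from each other as arrays of 1 vector. Over the genes tested, the mean absolute difference between a cluster and a miR-125a array averaged 0.24 over 9 pairs, from 0.18 to 0.29. The 3 cluster arrays differed from each other by 0.23 on average and the 3 miR-125a arrays by 0.26. Empty-vector arrays stood 0.26 from cluster arrays and 0.27 from miR-125a arrays. The closest of these 9 pairs was cluster array 5 with miR-125a array 2, at 0.182 with Pearson r = 0.994 across genes, which are not independent replicates. The farthest was cluster array 5 with miR-125a array 3, at 0.288.

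**Figure D1:**
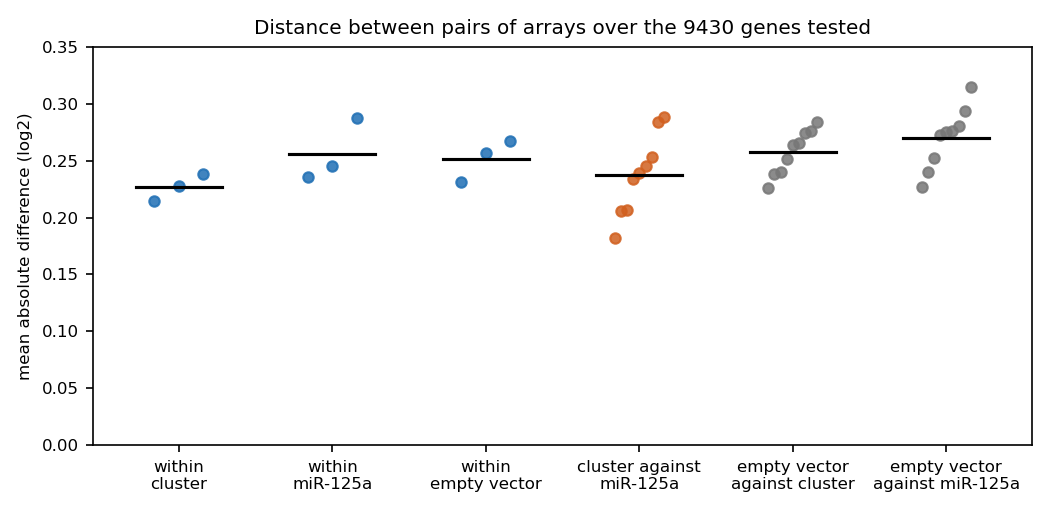
Mean absolute difference in log2 intensity over the genes tested, for each pair of the 9 arrays of dataset B (points) with the mean of each kind of pair (bars). The pairs of 1 cluster and 1 miR-125a array, between 0.18 and 0.29, cover the range of the pairs within a vector.

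Against the empty vector, 1 gene passed with the cluster (0.0106% of those tested) and none with miR-125a, where the lowest adjusted p was 0.111. The call, Arid3a, was lost with the replicate number as a block, which left 0 genes (adjusted p = 0.191). These comparisons share the 3 empty-vector arrays. At an unadjusted p under 0.05 they held 917 (9.72%) and 1002 (10.6%) genes.

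For genes of mature blood cells, 3 of the 9 arrays stood apart from the others of their group and touch some of the results below. Neutrophil granule genes were high on cluster array 5 and on miR-125a array 2, and mast cell genes were high on miR-125a array 3. Genes of monocytes and of dendritic cells were low on miR-125a array 3, on average by 0.37 and 0.28 below their means over the 9 arrays. Without that array the median cluster minus miR-125a difference of these 2 lists was -0.04 and -0.01, beside 0.09 and 0.11 with it. Over all genes, the mean distance of an array from the other two of its group ran from 0.187 to 0.241, and miR-125a array 3, empty-vector array 5 (0.236) and miR-125a array 2 (0.233) were the farthest. The sorted cells held myeloid messengers of several stages on all 9 arrays. Mpo and Elane, enzymes of promyelocyte granules, stood at 14.94 to 15.43 and 13.64 to 14.37, the stem cell factor receptor Kit at 9.48 to 9.94, and Lcn2, a gene of maturing neutrophils, at 11.04 to 13.27. The macrophage receptor Csf1r was detected on all 9 as well. The T cell gene Cd3e, the stromal gene Col1a1 and the progenitor gene Flt3 were detected on none of the 9 arrays. Between 34.2% and 38.9% of the probes were detected per array.

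Known targets of the let-7 family were examined first, since the cluster vector carries let-7e and the miR-125a vector does not. Of 41 genes on the list, 36 had a probe and 25 were tested. None was called. At an unadjusted p under 0.05, 5 of the 25 were lower with the cluster and 0 higher, beside 2.36% and 2.15% of all genes, and the other 20 did not reach it. In all, 14 members were lower and 11 higher, with a median difference of -0.09 against -0.003 for all genes. The classic targets Hmga2 and Lin28b were not detected on enough arrays to be tested.

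Igf2bp3, which encodes an RNA-binding protein of fetal and cancer cells, stood at 5.22, 5.49 and 5.18 on the 3 cluster arrays. It stood at 5.82, 5.73 and 6.42 on the miR-125a arrays and at 5.18, 5.69 and 5.74 on the empty-vector arrays. Every cluster value lay below every miR-125a value, while the empty-vector values overlapped the cluster's. The mean was 5.29 ± 0.17 with the cluster and 5.99 ± 0.37 with miR-125a (SD, n = 3 arrays each), a difference of -0.70 ± 0.21 (SE; 95% interval -1.15 to -0.24). Without miR-125a array 3 the difference was -0.47, and a second probe of the gene gave -0.33.

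Dicer1, the enzyme that cuts precursor microRNAs to their mature length, stood at 6.79, 6.99 and 6.66 with the cluster. With miR-125a it stood at 7.16, 7.35 and 7.41, and with the empty vector at 7.10, 7.04 and 7.14. The 3 groups did not overlap, with the cluster lowest and miR-125a highest. Cluster minus miR-125a was -0.49 ± 0.12 (SE; 95% interval -0.77 to -0.22), 1.41-fold lower, and a second probe gave -0.27. Dicer1 is on both the let-7 and the miR-125 list.

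Igf1r, the receptor of insulin-like growth factor 1, belongs to the let-7 and the miR-99 list. It stood at 6.74, 6.80 and 6.58 with the cluster, at 6.99, 7.17 and 7.29 with miR-125a, and at 7.15, 6.67 and 6.88 with the empty vector. The 2 vectors did not overlap and the empty-vector arrays overlapped both. The difference was -0.45 ± 0.14 (SE), and 2 other probes of the gene gave -0.41 and 0.05, so the probes of Igf1r disagree. The transcription factor gene Myc was lower by 0.45 ± 0.18, with groups that overlapped, and stood at -0.25 without miR-125a array 3.

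Arid3a, a DNA-binding protein of the ARID family on both the let-7 and the miR-125 list, was the gene called with the cluster against the empty vector. The empty-vector arrays stood at 8.52, 8.33 and 8.54, the miR-125a arrays at 7.48, 7.77 and 7.58, and the cluster arrays at 7.13, 7.27 and 7.22. No group overlapped another, and the order was empty vector, miR-125a, cluster. Against the empty vector Arid3a fell by 1.26 on the log2 scale with the cluster (limma adjusted p = 0.00636). With the replicate number as a block, on the empty-vector and cluster arrays alone, the adjusted p was 0.191. With miR-125a the difference from the empty vector was -0.86 (adjusted p = 0.111). The step between the vectors was -0.40 ± 0.12 (SE; 95% interval -0.67 to -0.14), or 1.32-fold.

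**Figure D2:**
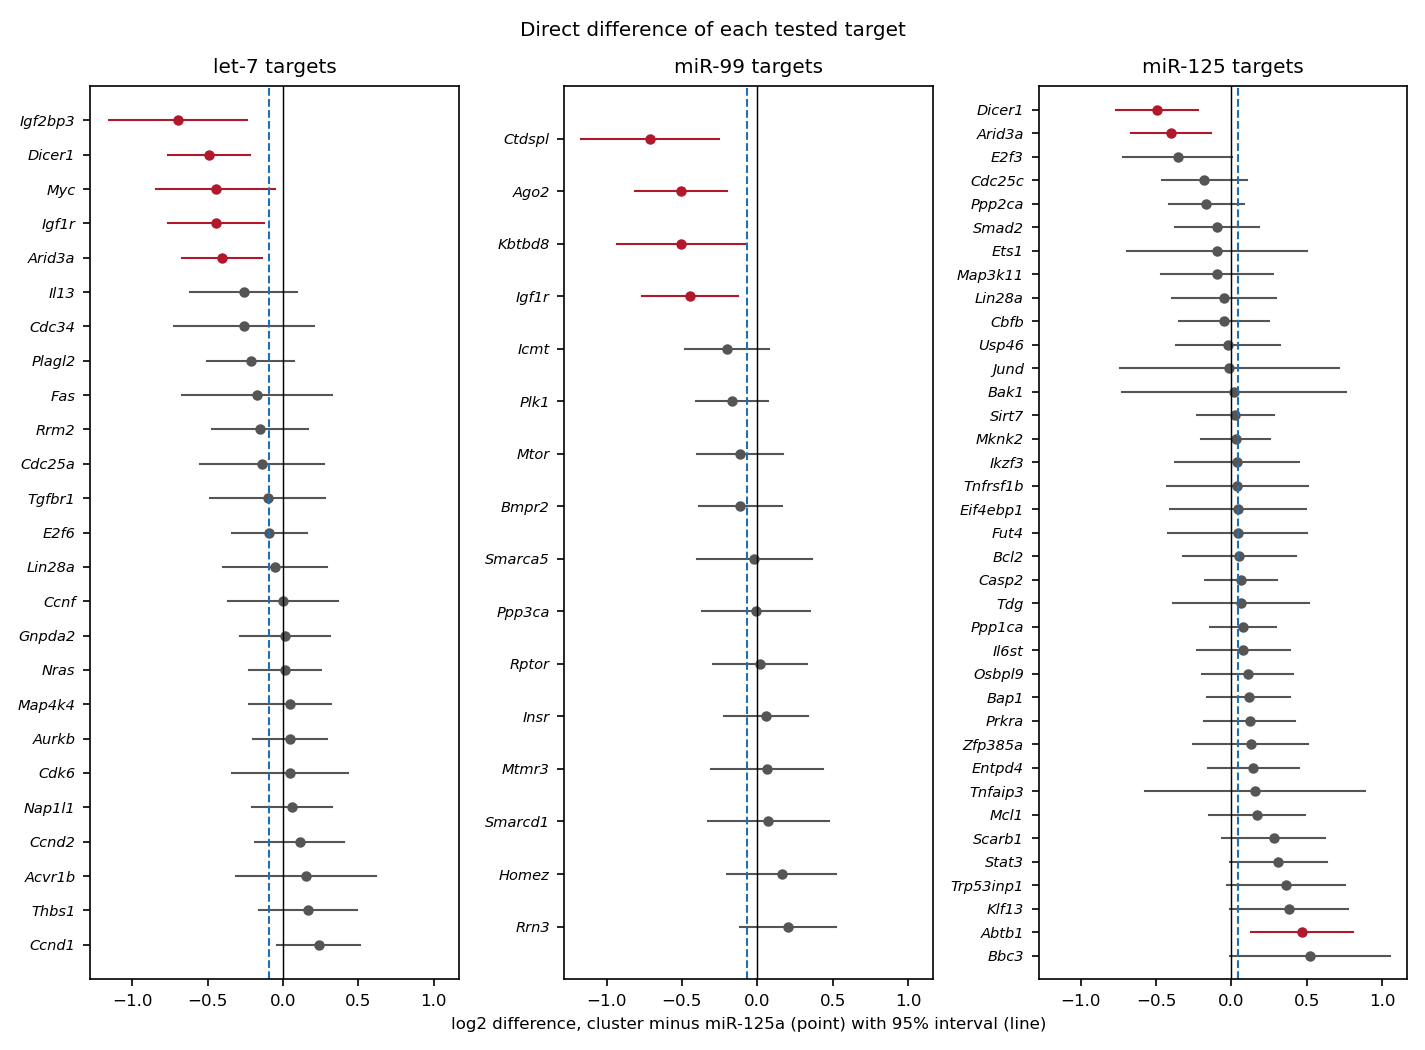
Cluster minus miR-125a (points, log2) with its 95% interval (lines) for each tested gene of the let-7, miR-99 and miR-125 target lists. Red marks an unadjusted p under 0.05 and the dashed line the list's median, which is -0.09 for let-7, -0.07 for miR-99 and 0.04 for miR-125 (-0.09 with median scaling).

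The miR-99 list was taken next, as miR-99b too is in the cluster vector alone. Of its 23 genes, 22 had a probe and 16 were tested, and none was called. At an unadjusted p under 0.05, 4 were lower with the cluster and 0 higher, beside 2.36% and 2.15% of all genes. In all, 10 were lower and 6 higher, with a median of -0.07. Ctdspl, a small phosphatase, stood at 5.28, 5.79 and 5.28 with the cluster, at 5.77, 6.59 and 6.12 with miR-125a, and at 5.64, 5.46 and 5.68 with the empty vector. Cluster array 5 overlapped the miR-125a arrays, and the difference was -0.71 ± 0.21 (SE). Kbtbd8, an adaptor of a ubiquitin ligase, was lower by 0.50 ± 0.19, but it was detected on only 1 of the 3 cluster arrays, its groups overlapped, and a second probe gave 0.06. Mtor itself differed by -0.12 ± 0.13 and the remodeling ATPase Smarca5 by -0.02 ± 0.17, with 95% intervals of -0.40 to 0.17 and -0.40 to 0.36.

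Ago2, the Argonaute protein that cuts targets and carries microRNAs, is on the miR-99 list and on the list of microRNA processing genes. It stood at 8.12, 8.09 and 7.90 with the cluster, at 8.48, 8.35 and 8.79 with miR-125a, and at 8.47, 8.27 and 8.39 with the empty vector. All 3 cluster values lay below all 6 others. The difference between the vectors was -0.51 ± 0.14 (SE; 95% interval -0.81 to -0.20), 1.42-fold lower. Of 2 other probes, 1 gave -0.59 and the other -0.16.

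Among the 18 tested genes of microRNA processing, 3 were lower at an unadjusted p under 0.05 (Ago2, Dicer1 and Ago3) and 0 higher. The shares of all genes were 2.36% and 2.15%. In all, 9 had a lower and 9 a higher mean with the cluster. Ago3 was detected on all 3 miR-125a arrays and on no other array of the 9, with a difference of -0.30 ± 0.12. It entered the test only through the group where it was high, at low values of 4.39 to 5.02, so it adds no support to the count. Drosha, the nuclear enzyme that cuts primary microRNAs, differed by -0.24 and its partner Dgcr8 by 0.41, and neither reached an unadjusted p of 0.05.

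Together the let-7 and miR-99 lists held 40 distinct tested genes, 23 lower and 17 higher with the cluster. At an unadjusted p under 0.05, 8 were lower and 0 higher, beside 2.36% and 2.15% of all genes. For 5 of the 8 the groups did not overlap, which is no separate result, since the 8 were picked by the same difference. Over the whole lists, 4 of 25 let-7 and 4 of 16 miR-99 genes did not overlap on the lower side, beside 5.02% of all genes. On the higher side it was 0 in both lists, beside 4.28%. The cluster mean lay below the empty-vector mean for all 8. The miR-125a mean lay above the empty-vector mean for 7 of them, all but Arid3a. These 8 were picked by the difference between the vectors, so their place beside the empty vector is a description. Leaving out any 1 array left between 4 and 5 of the let-7 genes and between 3 and 4 of the miR-99 genes at an unadjusted p under 0.05 on the lower side.

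Dataset A, a separate experiment whose arrays are not used in the direct comparison, gave a further look at these 8 genes. Its comparison is the cluster against the empty vector, which includes miR-125a, so it cannot show what miR-99b and let-7e add. There the cluster stood below the empty vector for 7 of the 8, with a median of -0.35, and Myc was the exception at 0.08. Only Arid3a was called there (-1.54, adjusted p = 0.000848). For Ctdspl the difference was -0.66 (adjusted p = 0.223) and for Igf2bp3 -0.43 (adjusted p = 0.494). Over whole lists, 16 of 25 let-7 genes, 13 of 16 miR-99 genes and 30 of 37 miR-125 genes were lower with the cluster in dataset A, with medians of -0.07, -0.33 and -0.17, beside 4458 of 9016 genes.

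The miR-125 targets are a list that both vectors share by design. Of 53 genes, 37 were tested and none was called. At an unadjusted p under 0.05, 1 was higher with the cluster and 2 lower, beside 2.15% and 2.36% of all genes. The 2 lower genes were Dicer1 and Arid3a, which are also let-7 targets. The higher count depended on the setting: it was 4 without miR-125a array 2, 3 without miR-125a array 1, cluster array 6 or empty-vector array 4, 2 without miR-125a array 3, and from 0 to 4 over the other settings. In all, 25 lay above 0 and 12 below, and the median was 0.04, but -0.09 with median scaling and -0.003 without miR-125a array 3. Median scaling moved the median of all genes to -0.158, and relative to it the list stood at 0.07. Against the shared empty-vector arrays the list's median was -0.05 with the cluster and -0.08 with miR-125a.

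Abtb1, an ankyrin-repeat and BTB protein, was the 1 miR-125 target lower with miR-125a alone at an unadjusted p under 0.05 in the main fit. It stood at 7.00, 6.83 and 6.78 with the cluster, at 6.36, 6.64 and 6.20 with miR-125a, and at 7.07, 7.35 and 6.92 with the empty vector. The miR-125a arrays lay below all others, and the cluster was higher than them by 0.47 ± 0.15 (SE; 95% interval 0.13 to 0.81). In dataset A, Abtb1 fell by 1.06 with the cluster (adjusted p = 0.0437). The transcription factor Klf13 and the apoptosis gene Bbc3 were higher with the cluster by 0.38 ± 0.18 and 0.52 ± 0.24, with intervals that reach just below 0, and other probes gave 0.17 for Klf13 and 0.08 and 0.02 for Bbc3. Bak1, another apoptosis gene and a well-known miR-125 target, stood at 6.38, 5.86 and 6.40 with the cluster and at 6.50, 6.04 and 6.06 with miR-125a. The empty-vector arrays gave 7.33, 7.52 and 6.03. Bak1 differed between the vectors by 0.02 ± 0.34, an interval of -0.73 to 0.76, and empty-vector array 6 lay among the vector arrays.

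**Figure D3:**
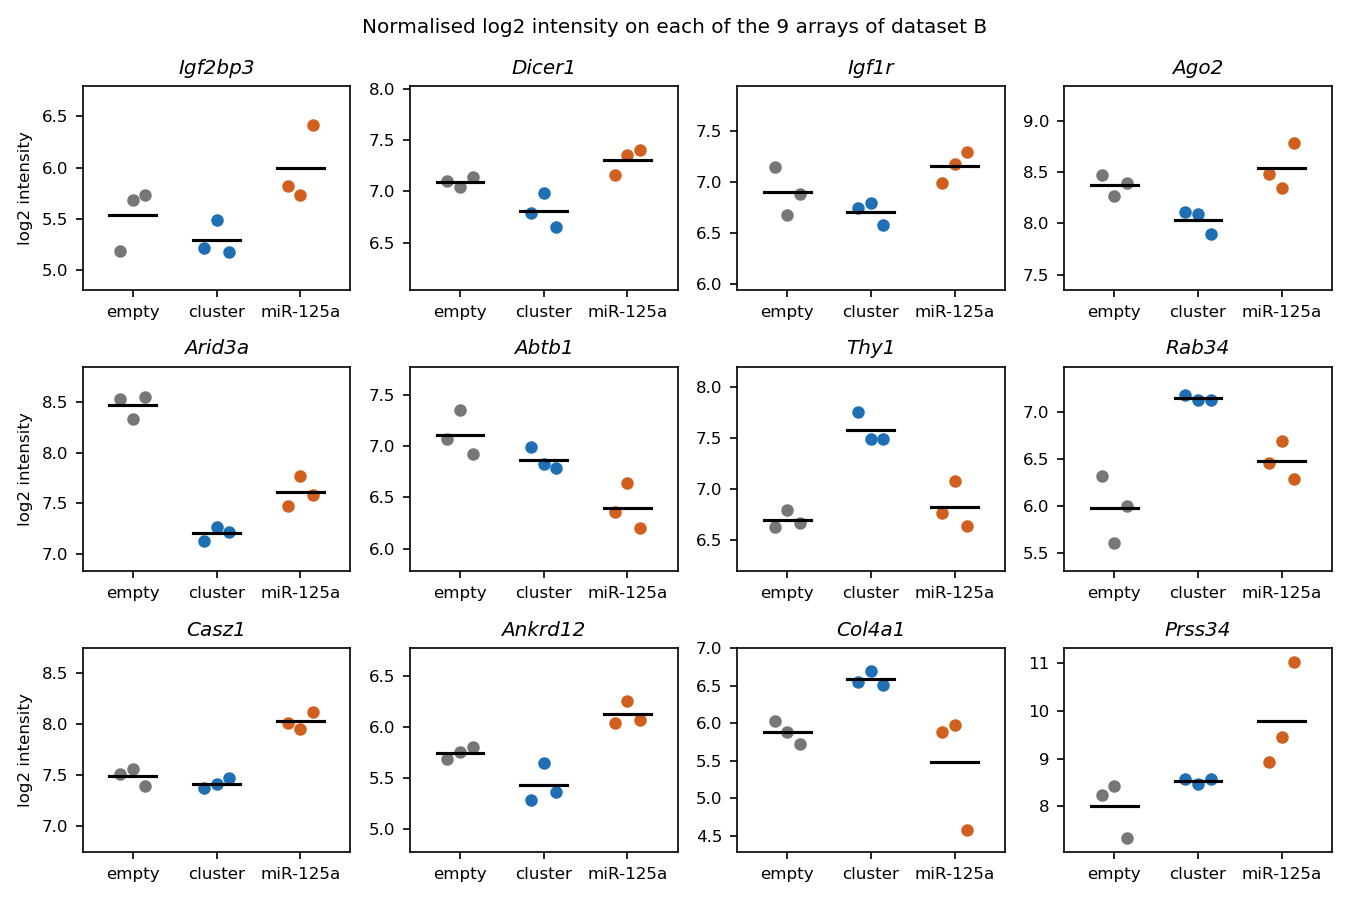
Normalised log2 intensity of 12 genes on each of the 9 arrays (points) with the group means (bars). The vertical ranges differ between panels. The cluster and miR-125a values of all 12 genes do not overlap, as for 9.3% of all genes tested. Several of the 12 were named by a rule that asks for no overlap, so this is no separate result. For Col4a1 and Prss34 a single miR-125a array lies far from the other two.

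The genes with the smallest unadjusted p stood outside these lists. Casz1, a zinc-finger transcription factor, was at 7.37, 7.41 and 7.47 with the cluster, 8.01, 7.95 and 8.11 with miR-125a, and 7.51, 7.56 and 7.40 with the empty vector. The miR-125a arrays stood above all others, and cluster minus miR-125a was -0.61 ± 0.11 (SE). Its limma p, 0.000154 before and 0.758 after adjustment over all genes, was the smallest. Ankrd12, an ankyrin-repeat protein, followed with 5.29, 5.65 and 5.36 against 6.04, 6.25 and 6.07, and a difference of -0.69 ± 0.13. A second Ankrd12 probe gave -0.11.

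Thy1, a surface glycoprotein of T cells and of some stem and progenitor cells, stood at 7.76, 7.50 and 7.49 with the cluster. It stood at 6.77, 7.08 and 6.64 with miR-125a and at 6.63, 6.80 and 6.67 with the empty vector. The cluster arrays were above all 6 others, which overlapped, and the cluster was 1.68-fold higher than miR-125a (0.75 ± 0.14 SE; 95% interval 0.44 to 1.06). With Thy1 among the 5 smallest p-values were Zfp691, higher by 0.71 ± 0.14, and Pcp4l1, higher by 0.59 ± 0.12. A second Pcp4l1 probe gave 0.57.

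The 10 largest differences on the higher side ran from 0.67 to 1.11, among genes with an unadjusted p under 0.05 and no overlap. The leader was Col4a1, a basement membrane collagen, at 6.55, 6.70 and 6.51 with the cluster and 5.88, 5.98 and 4.58 with miR-125a. It was higher by 1.11 ± 0.30 (2.15-fold), and by 0.65 without miR-125a array 3, on which it was not detected. Synpo, an actin-associated protein, was higher by 0.73 ± 0.21 and Selp, the adhesion molecule P-selectin of platelets, by 0.69 ± 0.16. Gkap1 was higher by 0.67 ± 0.14, with a second probe at 0.42, and Tmem98 by 0.71 ± 0.16, with a second probe at 0.07. The globin gene Hbb-bt was higher by 0.75 ± 0.30, and by 0.31 without miR-125a array 3; its probes may also bind near-identical globin messengers.

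On the lower side the 10 largest differences ran from -0.58 to -1.26 and included 2 mast cell genes described below. Smug1, a DNA repair glycosylase, was lower with the cluster by 0.67 ± 0.19, and Gatad2b, a subunit of the NuRD remodeling complex, by 0.66 ± 0.19. Gys1, a glycogen synthase, was lower by 0.66 ± 0.21, with a second probe at -0.004. Icam4, an adhesion molecule of red cells, was lower by 0.58 ± 0.12. It was detected on all 3 miR-125a and all 3 empty-vector arrays but on none of the cluster arrays. Of the 19057 named genes, 24 were detected on all 3 miR-125a arrays and no cluster array, and 16 the reverse. Of the 16, Fbxo2, a ubiquitin ligase subunit, had the largest difference at 0.62. All these genes had low values, from 4.26 to 5.46 on the 6 arrays, so the counts do not show presence against absence. A further 7852 genes were detected on all 6 arrays.

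Genes that the cluster moved in dataset A were traced next, since those arrays are independent of the direct comparison. There 67 of 10339 genes were called with the cluster against the empty vector, 32 raised (0.31%) and 35 lowered (0.339%). Of the 3 cluster columns of dataset A, 1 repeats the header of replicate 1 and was taken as a cluster replicate without a number. In dataset B, 31 of the raised genes were tested, and 21 were higher with the cluster than with miR-125a. Of these 31, 6 were higher and 1 lower at an unadjusted p under 0.05, beside 2.15% and 2.36% of all genes, and the median was 0.22. Against the shared empty-vector arrays their medians were 0.44 with the cluster and 0.29 with miR-125a. Without miR-125a array 3 the direct median was 0.07, with 22 of 31 higher. Of the 35 lowered genes 28 were lower with the cluster, with a median of -0.20. At an unadjusted p under 0.05, 3 of these 35 were lower and 2 higher, beside 2.36% and 2.15% of all genes. The median of the lowered genes was 0.10 without miR-125a array 2 and 0.02 without cluster array 6, so its direction rests on those arrays.

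Rab34, a small GTPase of the secretory pathway, was raised in dataset A by 1.59. In dataset B it stood at 7.18, 7.13 and 7.13 with the cluster, at 6.46, 6.69 and 6.29 with miR-125a, and at 6.32, 5.61 and 6.00 with the empty vector. The cluster arrays stood above all others, and the miR-125a arrays overlapped the empty-vector arrays. The vectors differed by 0.67 ± 0.17 (SE; 95% interval 0.28 to 1.05), and 2 further probes gave 0.40 and 0.39. Together with Thy1, raised by 1.31 in dataset A, Rab34 was among the 6 raised genes that were higher in the direct comparison at an unadjusted p under 0.05; the others were Tmem176a, Aif1l, Dmkn and H1f10, from 0.42 to 0.62.

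For other genes raised in dataset A the values of the 2 vectors overlapped. Cited4, a transcriptional coregulator, was at 6.56, 6.23 and 6.55 with the cluster and at 5.77, 5.90 and 6.51 with miR-125a, with empty-vector values of 5.49, 5.35 and 4.68. Its difference was 0.39 ± 0.24, with an interval of -0.14 to 0.92. Catsperz differed by 0.40 ± 0.24, by 0.10 without miR-125a array 3, and by -0.23 on a second probe, so its probes disagree. Klk8, a serine protease, was raised by 1.39 in dataset A and averaged 7.72 ± 0.21 with the cluster and 7.90 ± 0.08 with miR-125a (SD, n = 3 arrays each), with overlapping values. The interval of its difference, -0.49 to 0.13, includes 0. Outside that set, the progenitor transcription factor Sox4 was lowest with miR-125a alone, at 6.60, 6.96 and 6.94 against 7.27, 7.06 and 7.38 with the cluster and 7.77, 7.62 and 7.52 with the empty vector. The 3 groups of Sox4 values did not overlap, and the vectors differed by 0.40 ± 0.14.

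**Figure D4:**
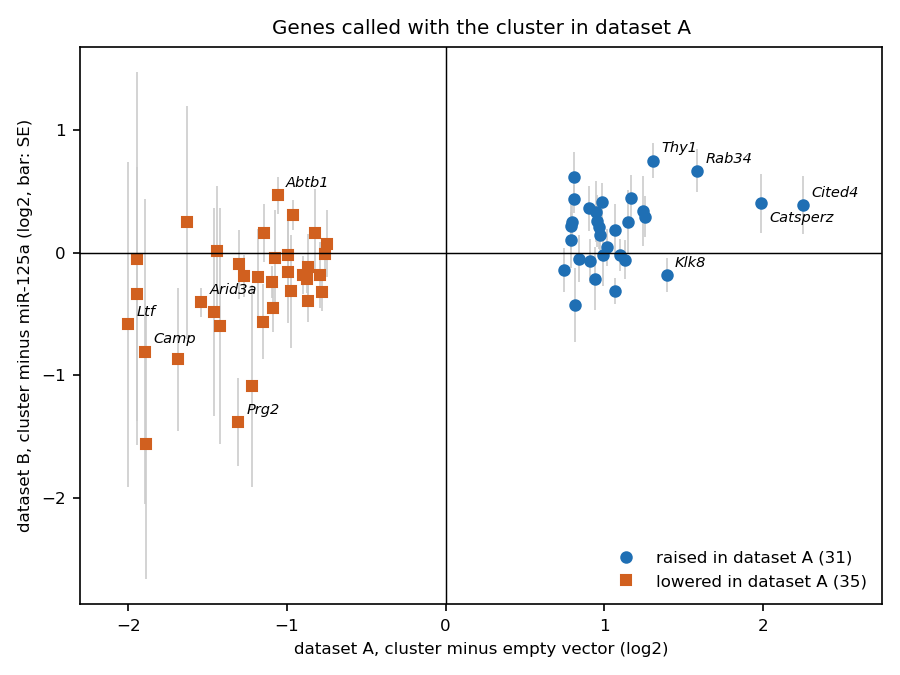
Genes called with the cluster in dataset A that were tested in dataset B: their cluster minus empty-vector difference in dataset A (x, log2) against cluster minus miR-125a in dataset B (y, log2, bars are SE). Blue circles are the 31 raised and orange squares the 35 lowered genes; 21 circles lie above 0 and 28 squares below.

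Of the mast cell and basophil genes most had a lower mean with the cluster, and they were highest on miR-125a array 3. Of 24 tested, 18 were lower and 6 higher, with a median of -0.18. At an unadjusted p under 0.05, 4 were lower (Prss34, Fcer1a, Ms4a2 and Cd200r3) and 1 higher, beside 2.36% and 2.15% of all genes. The higher gene was Csf2rb (0.56 ± 0.16, with other probes at -0.10 and 0.09). Prss34, a serine protease of mast cells and basophils, stood at 8.58, 8.46 and 8.58 with the cluster, at 8.92, 9.45 and 11.02 with miR-125a, and at 8.25, 8.43 and 7.34 with the empty vector. The miR-125a arrays lay above all others and array 3 far above. The difference was -1.26 ± 0.45, and -0.65 without array 3. Fcer1a and Ms4a2, chains of the IgE receptor, were lower by 0.80 ± 0.33 and 0.77 ± 0.30, and stood at -0.34 and -0.31 without that array.

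The list's mean deviation was 0.47 on miR-125a array 3 and between -0.13 and 0.07 on the 8 other arrays. Without array 3 the median of the list was -0.06, with 14 lower and 10 higher. The defining genes Cpa3 and Mcpt8 were detected on all 9 arrays, at 9.57 to 11.02 and 9.51 to 10.65, each highest on miR-125a array 3. Its part in the other differences was not tested, beyond the values without it given above.

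Neutrophil granule genes differed widely between arrays of the same vector. Of 33 tested, 11 were higher and 22 lower with the cluster, none at an unadjusted p under 0.05, with a median of -0.15. That median had no stable direction: it stood at 0.36 without miR-125a array 2, 0.12 without cluster array 6 and 0.07 without cluster array 4, and at -0.47 without cluster array 5 and -0.42 without miR-125a array 3. The mean deviation of the list was 1.02 on cluster array 5 and 1.20 on miR-125a array 2, and between -0.73 and 0.40 on the 7 others. Ltf, the iron-binding protein lactoferrin, stood at 7.77, 12.18 and 6.77 with the cluster and 8.05, 12.09 and 8.32 with miR-125a. The difference of -0.58 ± 1.32 has an interval from -3.51 to 2.35, so a several-fold difference in either direction lies within it. The chitinase-like gene Chil1 had the largest difference of all genes, -1.55 ± 1.10, with 5.93, 9.43 and 6.67 against 6.17, 10.10 and 10.42. It lay between -2.92 (without miR-125a array 1) and -0.79 (without miR-125a array 3) when 1 array was left out. When cluster array 5 and miR-125a array 2 were both left out, 0 genes were called and 489 had an unadjusted p under 0.05.

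The eosinophil gene Prg2, which encodes the major basic protein, was lower with the cluster on 2 arrays. It stood at 6.78, 7.94 and 6.50 with the cluster, at 7.87, 8.74 and 8.74 with miR-125a, and at 7.86, 8.43 and 7.81 with the empty vector. Cluster array 5 overlapped the others. The difference was -1.38 ± 0.36 (SE; 95% interval -2.17 to -0.58), 2.6-fold, and it lay between -1.81 and -1.09 when any 1 array was left out. In dataset A, Prg2 fell by 1.30 with the cluster (adjusted p = 0.0127). Prg3, a homologue of Prg2, was lower by 0.45 ± 0.20, and stood at -0.22 without miR-125a array 3. Of the 6 eosinophil genes tested, 4 were lower and 2 higher with the cluster, from -1.38 to 0.35. Prg2 and Prg3 alone had an unadjusted p under 0.05, which 2.36% of all genes reached on the lower side. Il5ra was detected on no array and Epx on 3 of 9.

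**Figure D5:**
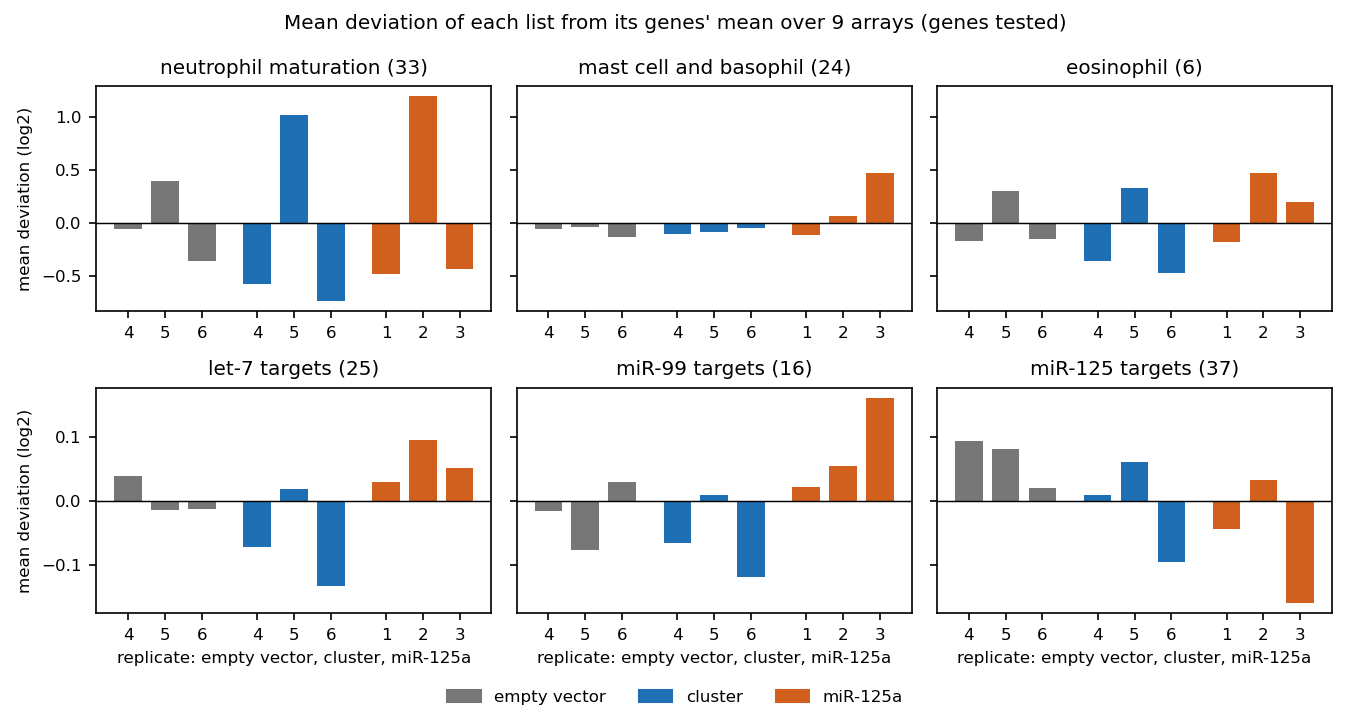
Mean deviation (log2) of each list's tested genes from their mean over the 9 arrays, for each array, with the number of genes in brackets. In the upper row cluster array 5 and miR-125a array 2 stand at 1.02 and 1.20 for neutrophil genes and miR-125a array 3 at 0.47 for mast cell genes; the lower row has its own, smaller scale.

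The remaining lists gave few genes at an unadjusted p under 0.05, which 2.15% of all genes reached on the higher side and 2.36% on the lower. In the primitive progenitor list 2 of 22 were higher with the cluster (Sox4 and Hoxa9) and 0 lower, and in the megakaryocyte list 1 of 14 was higher. In the erythroid list 1 of 12 was higher and 1 lower, Klf1 at -0.45. Klf1 was detected on the 3 miR-125a arrays alone, at 4.84 to 5.24. It thus entered the test only through the group where it was high. Among 44 DNA replication genes 1 was lower (Gins3, -0.30) and among 33 mitosis genes 1 was higher (Ube2c, 0.47), with medians of -0.02 and -0.03. For both lists every gene's 95% interval lay within 2-fold, as it did for 97.7% of all genes. None of 25 p53 targets, 24 apoptosis genes, 23 interferon response genes or 19 cholesterol synthesis genes reached an unadjusted p of 0.05. Of 35 genes of ribosome biogenesis and MYC targets 25 were lower with the cluster, with a median of -0.08, but 1 reached it (Myc) and without miR-125a array 3 the median was 0.01. Of 24 genes of the mTOR and insulin-like growth factor pathway only Igf1r reached it. In the lymphoid list 1 of 13 was higher, Thy1, and no gene reached it among 12 neutrophil primary granule, 27 monocyte, 17 dendritic cell and 5 stromal genes.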

How the data were processed

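Expression was measured on Illumina mouse bead arrays with 45281 probes. The authors deposited GenomeStudio mean bead intensity and a detection p-value per probe and array, and a table of processed log2 values, per the file headers and the submitters' processing notes; the array number limits the precision. Intensities of the 9 arrays of dataset B were corrected by normexp with controls inferred from the detection p-value (offset 16), quantile normalised and put on a log2 scale (limma 3.58.1, R 4.3.3). The brightest probe stood for a gene, and genes whose probe reached a detection p under 0.05 on fewer than 3 arrays were left out. One limma model of the 3 groups was fitted over the 9 arrays with moderated standard errors and Benjamini-Hochberg adjustment, and calls need an adjusted p under 0.05. Of the probes, 34885 carry 1 gene symbol, 18 several and 10378 none. Dataset A was processed separately (detected on 2 or more arrays).

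An exact permutation of 3 against 3 arrays cannot go below p = 0.1, so it was not used. The empty-vector and cluster arrays share numbers 4 to 6, and their deviations from group means correlated at 0.118, 0.182 and 0.175. The number was therefore tried as a block, as an alternative for that comparison only. The main fit had no block. The comparison, the lists and the members named were chosen with earlier results of these data known. Named genes were the 10 largest differences per direction among genes with an unadjusted p under 0.05 and no overlap, the 5 smallest p, the 5 largest differences of each target list and 2 of other lists, the 4 largest per direction among genes called in dataset A, and genes named earlier. The other genes beside small counts, and Bak1, Mtor and Smarca5, were chosen after their values were seen. Alternatives were the background correction, scaling, filter, probe choice, array weights, prior, samples in the fit, and leaving out each array.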

Additional observations from a re-analysis of the deposited data

How the results depend on the processing

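The direct comparison called 0 genes in every setting tried but median scaling in place of quantiles, which called 4 (Chil1 -1.73, Prg2 -1.58, Prss34 -1.45 and Chil4 -1.28). With median scaling the prior of the model had infinite degrees of freedom, against 4.52 in the main fit, so all genes were given 1 common variance. A gene's own spread between arrays then no longer counts, and the main-fit SE of Chil1 and Chil4 was 1.10 and 0.83. The main-fit SE of Prg2 and Prss34 was smaller, 0.36 and 0.45. What gave the 4 calls with median scaling was not tested. In that setting the median of all genes was -0.158, and 233 genes had an unadjusted p under 0.05 (33 higher and 200 lower, beside 203 and 223). The let-7, miR-99 and miR-125 medians were -0.288, -0.236 and -0.0897, which is -0.13, -0.08 and 0.07 relative to all genes. With no filter on dim probes 821 of 19057 genes had an unadjusted p under 0.05, 4 of them lower miR-125 targets. Leaving out 1 array gave 279 to 644 such genes, the lowest without miR-125a array 3 and the highest without miR-125a array 2, and medians from -0.148 to -0.0233 for let-7, -0.145 to -0.0377 for miR-99 and -0.00346 to 0.103 for miR-125. Without cluster array 5 and miR-125a array 2, a setting chosen after seeing the data, the miR-99 median was -0.164. Of 1354 values for 69 genes, 1337 kept their direction and side of the threshold, 4 passed it (above) and 13 changed sign. Ltf, Camp and Ngp ranged from -2.22, -2.18 and -1.67 (without cluster array 5) to 0.719, 0.567 and 0.388 (without miR-125a array 2), and stood at 0.486, 0.125 and 0.0471 without cluster array 6. Cma1 stood at 0.0243 without miR-125a array 3. Bak1, at 0.02, stood at -0.118 with median scaling and -0.0644 with array weights, and reached -0.0749 when 1 array was left out. The cause of these shifts was not tested. No paired analysis was possible because the cluster and miR-125a arrays share no replicate number; against the empty vector, the replicate block on 6 arrays left 0 calls (lowest adjusted p 0.191, 1066 genes at an unadjusted p under 0.05) where the same arrays without it gave 1 (adjusted p 0.0326).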
